A study of Mus musculus with 2 samples.

Results

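The receptors for the myeloid growth factors and 1 of their ligands were followed across the immune cells of the aortic adventitia, the outer layer of the arterial wall. The 7 genes were *Csf1r*, *Csf2ra*, *Csf2rb*, *Csf3r*, *Flt3*, *Kit* and *Csf1*, found by their symbols in the list of 55386 features that both libraries share. All 7 were present, and none of them belonged to the marker lists that defined the cell classes. CD45-positive cells were sorted from whole aortas of RankCreRosa26eYFP mice of 16 weeks and captured on the 10x Genomics 3' v3.1 platform. One library came from untreated mice (steady state) and 1 from mice given angiotensin II at 1.8 µg/kg/min (AngII), both in the same reporter strain. In this strain *Rank*-Cre switches on eYFP in descendants of yolk sac erythro-myeloid progenitors, which include resident macrophages, and spares most progeny of adult bone marrow stem cells. Cells of several animals went into a library, so each condition was 1 sample and no test between the conditions was possible. All intervals given here are 95% intervals that cover counting error only.

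These genes make up the growth factor system that keeps myeloid cells alive and directs their maturation. *Csf1r*, *Flt3* and *Kit* encode receptor tyrosine kinases: Csf1r binds M-CSF (the product of *Csf1*) and interleukin 34 and sustains macrophages, Flt3 sustains dendritic cells, and Kit binds stem cell factor and sustains mast cells and early progenitors. *Csf2ra* and *Csf2rb* encode the specific and the common chain of the GM-CSF receptor, the common chain also serving the receptors of interleukin 3 and interleukin 5. *Csf3r* encodes the G-CSF receptor, best known in neutrophils. In tissues, Csf1r marks nearly every macrophage and monocyte, whereas Kit and Flt3 are kept by few mature cell types.

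The sequences just before the RefSeq start sites are shown for 4 genes that had their highest AngII level in CPM outside macrophages in the results that follow: *Csf3r* and *Csf1* in neutrophils, *Flt3* in dendritic cells and *Kit* in mast cells. The same held for *Csf2ra* and *Csf2rb*, which are not shown, and no promoter was found for *Csf2rb*. Each window was taken from the 250 bases before the start and reads 5′ to 3′ on the strand of the gene (GRCm38.p6). Bases that belong to an exon of the gene are left out. The *Flt3* and *Csf1* windows end at the base before the start, whereas those of *Csf3r* and *Kit* end 109 and 71 bases earlier. Capitals mark a GAGGAA match, the core letters bound by PU.1, the macrophage and granulocyte transcription factor. Their windows are chr4:126024409-126024549 (*Csf3r*, plus), chr5:147400490-147400739 (*Flt3*, minus), chr5:75574737-75574915 (*Kit*, plus) and chr3:107760470-107760719 (*Csf1*, minus).
Csf3r: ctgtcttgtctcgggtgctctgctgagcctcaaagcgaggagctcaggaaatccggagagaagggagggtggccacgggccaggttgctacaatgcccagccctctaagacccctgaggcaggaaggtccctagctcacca
Flt3: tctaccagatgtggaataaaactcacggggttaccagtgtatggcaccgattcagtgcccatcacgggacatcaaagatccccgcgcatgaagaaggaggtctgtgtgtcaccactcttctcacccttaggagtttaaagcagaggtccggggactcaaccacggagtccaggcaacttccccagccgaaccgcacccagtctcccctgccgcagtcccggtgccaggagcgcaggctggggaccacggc
Kit: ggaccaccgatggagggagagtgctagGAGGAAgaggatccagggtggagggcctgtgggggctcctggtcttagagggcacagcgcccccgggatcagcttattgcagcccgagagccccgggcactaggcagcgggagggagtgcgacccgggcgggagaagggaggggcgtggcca
Csf1: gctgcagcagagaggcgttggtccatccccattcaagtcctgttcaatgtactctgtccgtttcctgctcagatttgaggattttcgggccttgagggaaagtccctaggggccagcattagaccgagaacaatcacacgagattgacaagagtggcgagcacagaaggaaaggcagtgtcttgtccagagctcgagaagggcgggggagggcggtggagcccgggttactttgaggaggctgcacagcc
GC content was 61.0% in the *Csf3r* window, 59.2% for *Flt3*, 69.3% for *Kit* and 56.4% for *Csf1*. In a search of both strands of the whole 250 bases before each start, GAGGAA occurred before *Csf2ra*, *Csf3r* and *Kit*, and in 23.3% of all 32851 promoters of that length. The *Csf3r* match, at position -86 from the start, lies in the bases left out of its window. AGATAA, the letters of GATA factors, was in none of the 5 promoters found and in 9.99% of all. Such matches describe the letters alone.

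The genes lie on different chromosomes except for *Flt3* and *Kit* (coordinates in GRCm38, gene models of GENCODE M21). *Csf1r* (ENSMUSG00000024621) spans 61100598 to 61132149 of chromosome 18, on the plus strand, and overlaps *Hmgxb3* on the opposite strand. *Csf2ra* (ENSMUSG00000059326) spans 61223957 to 61228429 of chromosome 19, minus strand, and *Csf2rb* (ENSMUSG00000071713) spans 78325752 to 78353847 of chromosome 15, plus strand. *Csf3r* (ENSMUSG00000028859) lies on chromosome 4 from 126024550 to 126044440, plus strand, and *Csf1* (ENSMUSG00000014599) on chromosome 3 from 107741048 to 107760469, minus strand. *Flt3* (ENSMUSG00000042817) spans 147330741 to 147400489 of chromosome 5 on the minus strand, with the antisense transcript *Gm26597*, and *Kit* (ENSMUSG00000005672) spans 75574916 to 75656722 of the same chromosome on the plus strand. How strand was used in counting was not given in the sources used here. Whether reads of the opposite-strand neighbours entered the counts of *Csf1r* and *Flt3* was not examined. *Csf2rb* has a close paralogue, *Csf2rb2*, on the same chromosome. In the last 500 bases of the longest *Csf2rb* transcript, where 3' reads fall, 0 of the 410 words of 91 bases occurred in *Csf2rb2* transcripts. The ends of the other *Csf2rb* transcripts were not searched.

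A UMI is the tag of 1 captured molecule, and levels are given in CPM, the UMIs of a gene scaled to 1000000 UMIs summed over all cells of a class. The libraries differed in size and depth: 306 of 346 steady-state barcodes and 4198 of 4419 AngII barcodes passed the cell filter stated in the study's methods, with median depths of 9105 and 1092 UMIs per cell, and no barcode occurred in both libraries. The cell numbers that the study states equal the barcodes before this filter. Marker gates placed 135 steady-state and 2495 AngII cells among macrophages. At steady state 127 were assigned to the resident *Lyve1*/*Folr2* programme. On AngII 732 were assigned to the resident programme, 935 to the *Arg1*/*Spp1* programme and 828 to neither. Cells assigned to neither (other macrophages) had fewer than 2 markers of each list, or equal numbers from both. Their median depth on AngII was 812 UMIs, against 1722 in resident and 1103 in *Arg1*/*Spp1* cells. No class marker list had more than 1 gene at 0 in a class of at least 9 cells apart from the AngII eosinophils, with 3 of 7 at 0. Among the remaining steady-state cells were 51 B cells, 42 T cells, 15 cDC2, 13 nonclassical and 9 classical monocytes, 11 cDC1, 9 mast cells, 7 type-2 innate lymphoid cells (ILC2) and 3 neutrophils. AngII held 273 T cells, 232 cDC1, 192 neutrophils, 189 classical and 21 nonclassical monocytes, 109 cDC2, 99 B cells, 33 migratory dendritic cells, 20 mast cells, 10 plasmacytoid dendritic cells (pDC) and 7 ILC2. Here cDC1 and cDC2 are the types 1 and 2 of conventional dendritic cells. The gates left 2.61% of steady-state and 11.8% of AngII cells unassigned. B cells, which lack most of these receptors, served as a background class. Their counts can come from free RNA or from mixed barcodes: 11 of their 15 *Csf1r* UMIs at steady state and 7 of 17 on AngII were in 1 barcode.

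Macrophages held most of the *Csf1r* transcripts in both libraries, 87.5% of its 2640 UMIs at steady state and 79.8% of 8595 on AngII, whereas they held 47.0% and 51.5% of the UMIs of all genes. The macrophage share of *Csf2ra*, 48.8% of 729 and 54.6% of 3760 UMIs, was near their share of all UMIs, whereas T cells held 2.61% and 0.931% of it, against 11.3% and 7.26% of all UMIs. They also held the largest share of *Csf2rb* UMIs, 44.1% of 204 and 47.2% of 2830. On AngII, neutrophils with 2.7% of all UMIs held 38.8% of the 1364 *Csf3r* UMIs and 52.3% of the 547 *Csf1* UMIs, while macrophages held 38.0% and 29.8%. At steady state, with 3 neutrophils, macrophages held more of both, 44.0% of 109 *Csf3r* UMIs against 33.9% and 33.3% of 27 *Csf1* UMIs against 22.2%. Mast cells at steady state held 72.7% of the 139 *Kit* UMIs but only 7.5% of 373 on AngII, where cDC1 held 36.2% and cDC2 22.0%. The mast cell share of all UMIs was also lower on AngII, 0.148% against 1.65% at steady state. *Flt3* was led by cDC1, with 52.3% of 65 and 44.3% of 853 UMIs.

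**Figure D1:**
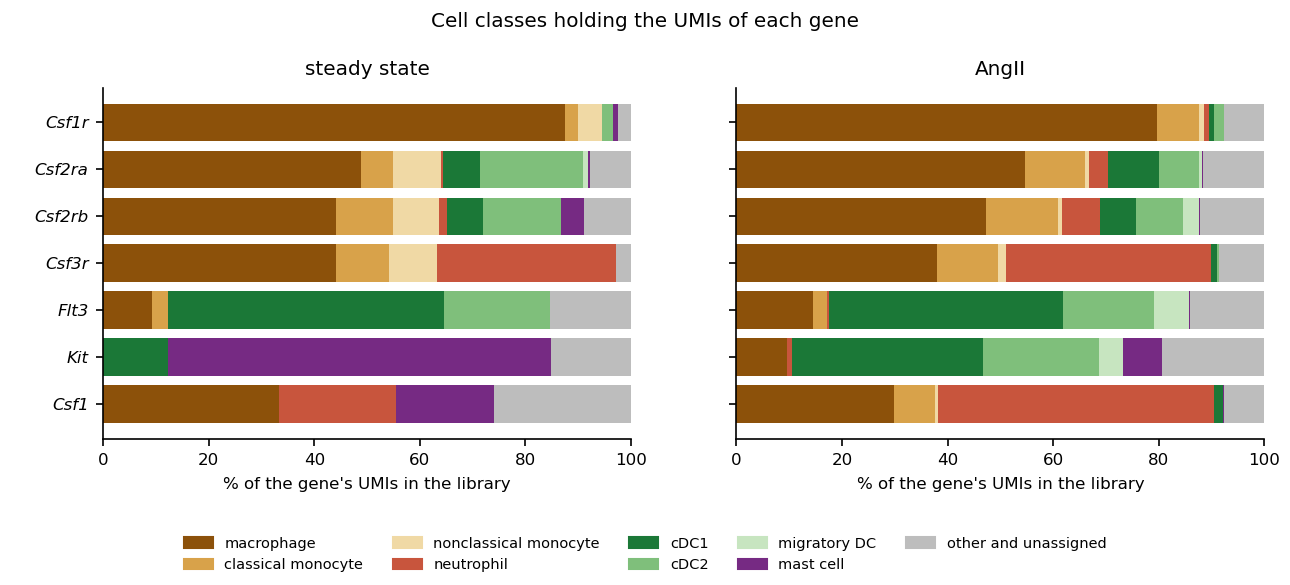
Share of the UMIs of each of the 7 genes that fell in each marker-gated class (stacked bars, percent of the gene's UMIs, from 0 to 100), with 1 bar per library and gene. Macrophages hold 87.5% of *Csf1r* UMIs at steady state, neutrophils 52.3% of *Csf1* UMIs on AngII, and mast cells 72.7% of *Kit* UMIs at steady state.

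*Csf1r* was highest in resident macrophages in both libraries. At steady state its level was 1431 CPM (1373 to 1491) in 127 resident macrophages and 717 CPM in nonclassical monocytes. Classical monocytes had 462 CPM, and the 7 macrophages assigned to neither programme had 408 CPM. Resident macrophages exceeded the next class by 2.0-fold (1.66 to 2.42). Classical monocytes and those other macrophages did not differ beyond their counting error. The cDC2 had 154 CPM, whereas cDC1, B and T cells separated from the myeloid classes at 0, 49.4 and 31.4 CPM, and the 0 UMIs of the 11 cDC1 allow up to 12.8 CPM.

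On AngII the order of the *Csf1r* levels was flatter. Resident macrophages had 893 CPM (863 to 923) and nonclassical monocytes 804 CPM (645 to 991). Macrophages assigned to neither programme had 642 CPM and *Arg1*/*Spp1* macrophages 626 CPM. Resident macrophages and nonclassical monocytes overlapped in their intervals (ratio 1.11, 0.898 to 1.39), as did both of the other macrophage groups (1.03, 0.952 to 1.10). Classical monocytes followed at 481 CPM, then neutrophils at 174 CPM and cDC2 at 144 CPM. When the cells were grouped into Leiden clusters, 114 of the 192 gated neutrophils lay in the cluster named neutrophil. Another 42 lay in clusters of other macrophages and 30 in *Arg1*/*Spp1* macrophage clusters. The part this has in the neutrophil levels and shares given here was not tested. Of the 935 gated *Arg1*/*Spp1* macrophages, 456 lay in *Arg1*/*Spp1* clusters, 355 in clusters of other macrophages and 75 in resident clusters. Of the 732 gated resident macrophages, 456 lay in resident clusters, 139 in clusters of other macrophages and 121 in *Arg1*/*Spp1* clusters. The part this has in the order of the AngII macrophage groups, given here for any gene, was not tested. The 232 cDC1 at 38.9 CPM stood at the level of B cells (43.0 CPM).

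Macrophages of the AngII library thus carried less *Csf1r* for their UMIs, 739.6 CPM (722 to 757) against 1347 CPM (1292 to 1403), a ratio of 0.549 (0.524 to 0.576). Within the resident gate the ratio was 0.624 (0.591 to 0.658), while it was 1.04 (0.807 to 1.37) in classical monocytes, 1.12 (0.842 to 1.49) in nonclassical monocytes and 0.939 (0.690 to 1.30) in cDC2. The monocyte gates held unlike cells in the libraries: at steady state all 9 classical and 13 nonclassical cells lay in the Leiden cluster named nonclassical, whereas on AngII 71 of 189 classical and 11 of 21 nonclassical cells lay in the cluster named classical, 80 classical cells lay in clusters of other macrophages, and no nonclassical cluster was found. The part this has in any monocyte ratio given here was not tested. The macrophage ratio stood at the 10.3 percentile of the 11278 genes with at least 20 UMIs in either library, whose median ratio was 0.984. Thinned to 1000 UMIs a cell, 95 of 133 steady-state macrophages (71.4%, 63.0 to 78.9) and 656 of 1333 AngII macrophages (49.2%, 46.5 to 51.9) had a *Csf1r* UMI, against 4.0% and 1.56% of B cells. Without thinning these shares were 97.0% and 55.1%. The median depth was 10303 UMIs in steady-state and 1061 UMIs in AngII macrophages.

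The size of this difference varied with the depth of the cells compared, as the plot of macrophage levels by depth shows. Among macrophages of 5000 to 10000 UMIs the *Csf1r* level was 1913 CPM in 46 steady-state cells and 977 CPM in 134 AngII cells, a ratio of 0.511 (0.463 to 0.565). Between 10000 and 20000 UMIs the ratio was 0.515 (0.478 to 0.555). Among the cells with 20000 UMIs or more it was 0.822 (0.747 to 0.906), from 795 CPM in 23 cells to 653 CPM in 112. The steady-state level was lower in deeper cells, so the ratio was nearer to 1 there. In the resident gate the 3 ratios were 0.566, 0.592 and 0.879 (0.791 to 0.978). The part that depth has in the pooled ratio was not tested further. When the cell classes were taken from Leiden clusters in place of marker gates, the ratio was 0.618 in macrophages but 0.935 (0.885 to 0.988) in the resident clusters, whose steady-state cells then included 15 of the 15 gated cDC2.

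**Figure D2:**
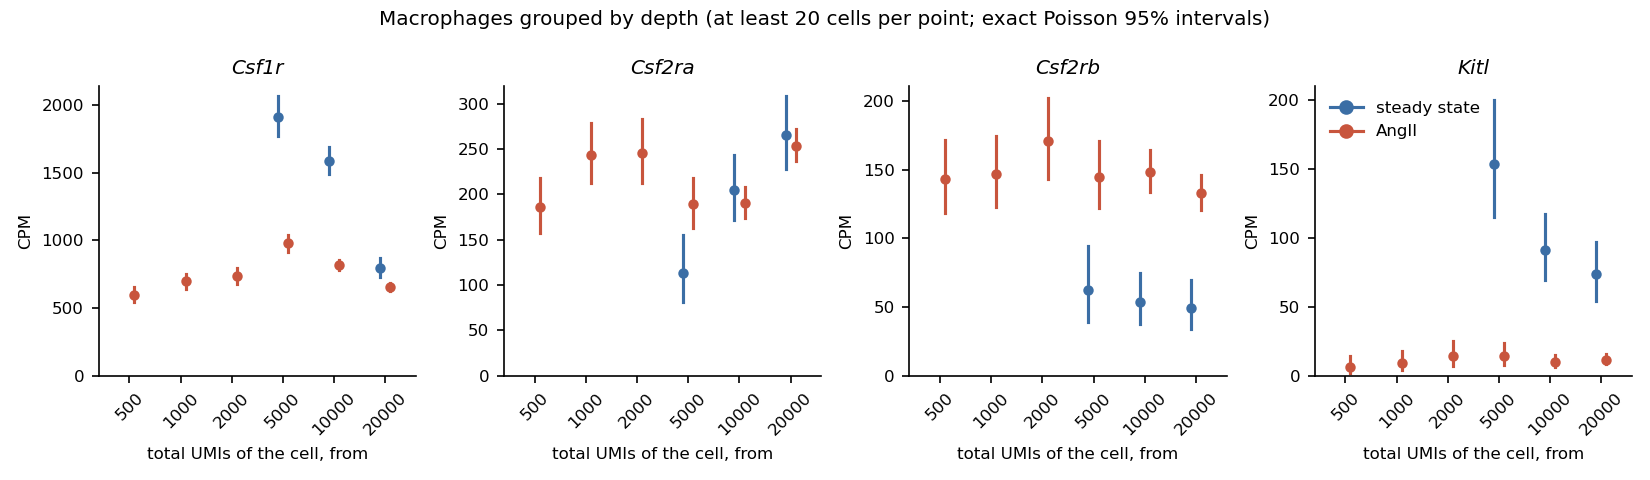
Levels of *Csf1r*, *Csf2ra*, *Csf2rb* and *Kitl* (CPM with 95% Poisson intervals) in macrophages grouped by their total UMIs, in both libraries, for groups of at least 20 cells. *Csf1r* and *Kitl* lie lower on AngII in each shared depth range and *Csf2rb* lies higher, while the *Csf1r* ratio goes from 0.511 at 5000 to 10000 UMIs to 0.822 at 20000 or more.

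The *Rank*-Cre reporter was read as at least 1 UMI of the *EYFP* transcript. On AngII, 348 Yfp+ macrophages had 843 CPM of *Csf1r* and 2147 Yfp- macrophages 679 CPM, a ratio of 1.24 (1.18 to 1.30) that was 1.29 (1.11 to 1.49) when cells were thinned after the call. *Csf2rb* had the opposite order, 113 against 163 CPM (0.694, 0.615 to 0.782; thinned 0.536, 0.344 to 0.806). Within the AngII resident gate the ratios were 1.18 for *Csf1r* and 0.699 for *Csf2rb*. Yfp+ cells were deeper than Yfp- cells, with median depths of 5219.5 and 976 UMIs, and a Yfp- call in a shallow cell says little about its origin. At steady state the 100 Yfp+ resident macrophages had 1372 CPM of *Csf1r* and the 27 Yfp- cells 1952 CPM (0.703, 0.624 to 0.794), and the thinned ratio of 0.806 (0.583 to 1.13) held 1. The Yfp+ and Yfp- macrophages therefore differed in *Csf1r* in opposite directions in the 2 libraries at full depth, and no test of that difference could be made.

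The genes for the chains of the GM-CSF receptor had unlike patterns. *Csf2ra* was found across macrophages, monocytes, cDC1 and cDC2, from 187 CPM in resident macrophages to 534 CPM in the 7 other macrophages at steady state. On AngII these classes and neutrophils had 194 to 309 CPM, in a graded order in which no neighbours differed beyond counting error but the ends did, with classical monocytes at 309 CPM (280.3 to 340) and resident macrophages at 194 CPM (181 to 209). Mast cells had 49.9 CPM at steady state and 150.2 CPM on AngII, from 3 and 4 UMIs, and AngII migratory dendritic cells had 86.0 CPM. B cells had 29.7 and 37.9 CPM. The level in macrophages was 208 CPM at steady state and 221 CPM on AngII, a ratio of 1.07 (0.953 to 1.2), and in cDC2 it was 392 and 248 CPM (0.632, 0.516 to 0.778). A *Csf2ra* UMI was seen in 11.3% of thinned steady-state macrophages and in 21.5% of those from AngII. Its depth-matched ratios were 1.66 (1.18 to 2.40), 0.928 and 0.954, so no single direction held across depths.

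*Csf2rb* was higher on AngII in most myeloid classes. Among the steady-state classes of at least 7 cells it was highest in the 9 classical monocytes (156 CPM, 97.9 to 237). The 9 mast cells followed at 149.6 CPM from 9 UMIs. Of these UMIs, 1, 3 and 2 were in the 3 barcodes that carried 9, 9 and 8 macrophage markers. Nonclassical monocytes had 108 CPM, cDC2 82.3 CPM, cDC1 59.9 CPM and resident macrophages 51.7 CPM. The 3 neutrophils had 3 UMIs, or 229 CPM (47.2 to 669). The larger classes overlapped pairwise with their neighbours, and only the step from resident macrophages to B cells (13.2 CPM) exceeded counting error. On AngII neutrophils led with 410.3 CPM (356 to 471), followed by mast cells at 338 CPM, from 9 UMIs in 4 of 20 cells. Migratory dendritic cells had 336 CPM, classical monocytes 278 CPM, and cDC2 and nonclassical monocytes 219 CPM each. The macrophages were ordered as 169.6 CPM in *Arg1*/*Spp1* cells, 141 CPM in those assigned to neither programme and 120.4 CPM in resident cells. *Arg1*/*Spp1* cells exceeded those assigned to neither by 1.21-fold (1.03 to 1.41), while the latter and resident cells did not differ beyond counting error. The 10 pDC of that library had 340.4 CPM from 20 UMIs.

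Between the libraries, *Csf2rb* in macrophages was 52.5 CPM at steady state and 144 CPM on AngII, a ratio of 2.75 (2.22 to 3.44). The ratio was 2.33 (1.84 to 2.98) in resident macrophages, 2.67 (1.82 to 4.04) in cDC2, 2.04 (1.06 to 3.99) in nonclassical monocytes, 1.78 (1.16 to 2.87) in classical monocytes and 1.75 (1.02 to 3.27) in cDC1. The macrophage ratio held at matched depth, with 2.32, 2.75 and 2.69 in the 3 depth ranges, and the resident ratio was 1.85, 2.47 and 1.96. In thinned cells, 6.02% of steady-state and 14.2% of AngII macrophages had a *Csf2rb* UMI, against 2.0% and 0 of 64 B cells (up to 5.6%). B cells, with 4 and 14 UMIs, had a ratio of 2.68 (0.843 to 11.2), and whether this background contributed to the macrophage ratio was not tested. T cells, with 5 and 14 UMIs, had a ratio of 0.886 (0.302 to 3.14), an interval that also holds the macrophage ratio. The cDC1 ratio was 1.01 when each cell was given the same weight.

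*Csf3r* had its highest level in neutrophils. In the 192 AngII neutrophils it reached 1069 CPM (980.1 to 1164), 5.85 times (3.75 to 9.66) the level of nonclassical monocytes at 183 CPM. Classical monocytes had 114 CPM, the macrophage groups 53.9 to 59.0 CPM, and cDC1, cDC2, B and T cells no more than 8.21 CPM. The transcript was spread over many neutrophils: 120 of 192 had a UMI, 94 at least 2, the highest 3 cells 19, 16 and 14, and the 5 highest together 74 of the 529 UMIs. After thinning, 85 of 135 neutrophils (63.0%, 54.2 to 71.1) and 0 of 64 B cells had a UMI. The 3 steady-state neutrophils carried 12, 10 and 15 UMIs among 4597, 4362 and 4150, so *Csf3r* was present in each of them. Outside neutrophils, steady-state levels were 78.1 CPM in classical and 59.7 CPM in nonclassical monocytes and 27.7 CPM in resident macrophages. B cells had 0 UMIs, where a floor of 3 UMIs equals 9.89 CPM. Macrophages had 28.0 CPM at steady state and 56.0 CPM on AngII (2.0, 1.49 to 2.75), and nonclassical monocytes 59.7 and 183 CPM from 10 and 20 UMIs (3.06, 1.37 to 7.32), of which 12 of the 20 were in 1 cell.

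**Figure D3:**
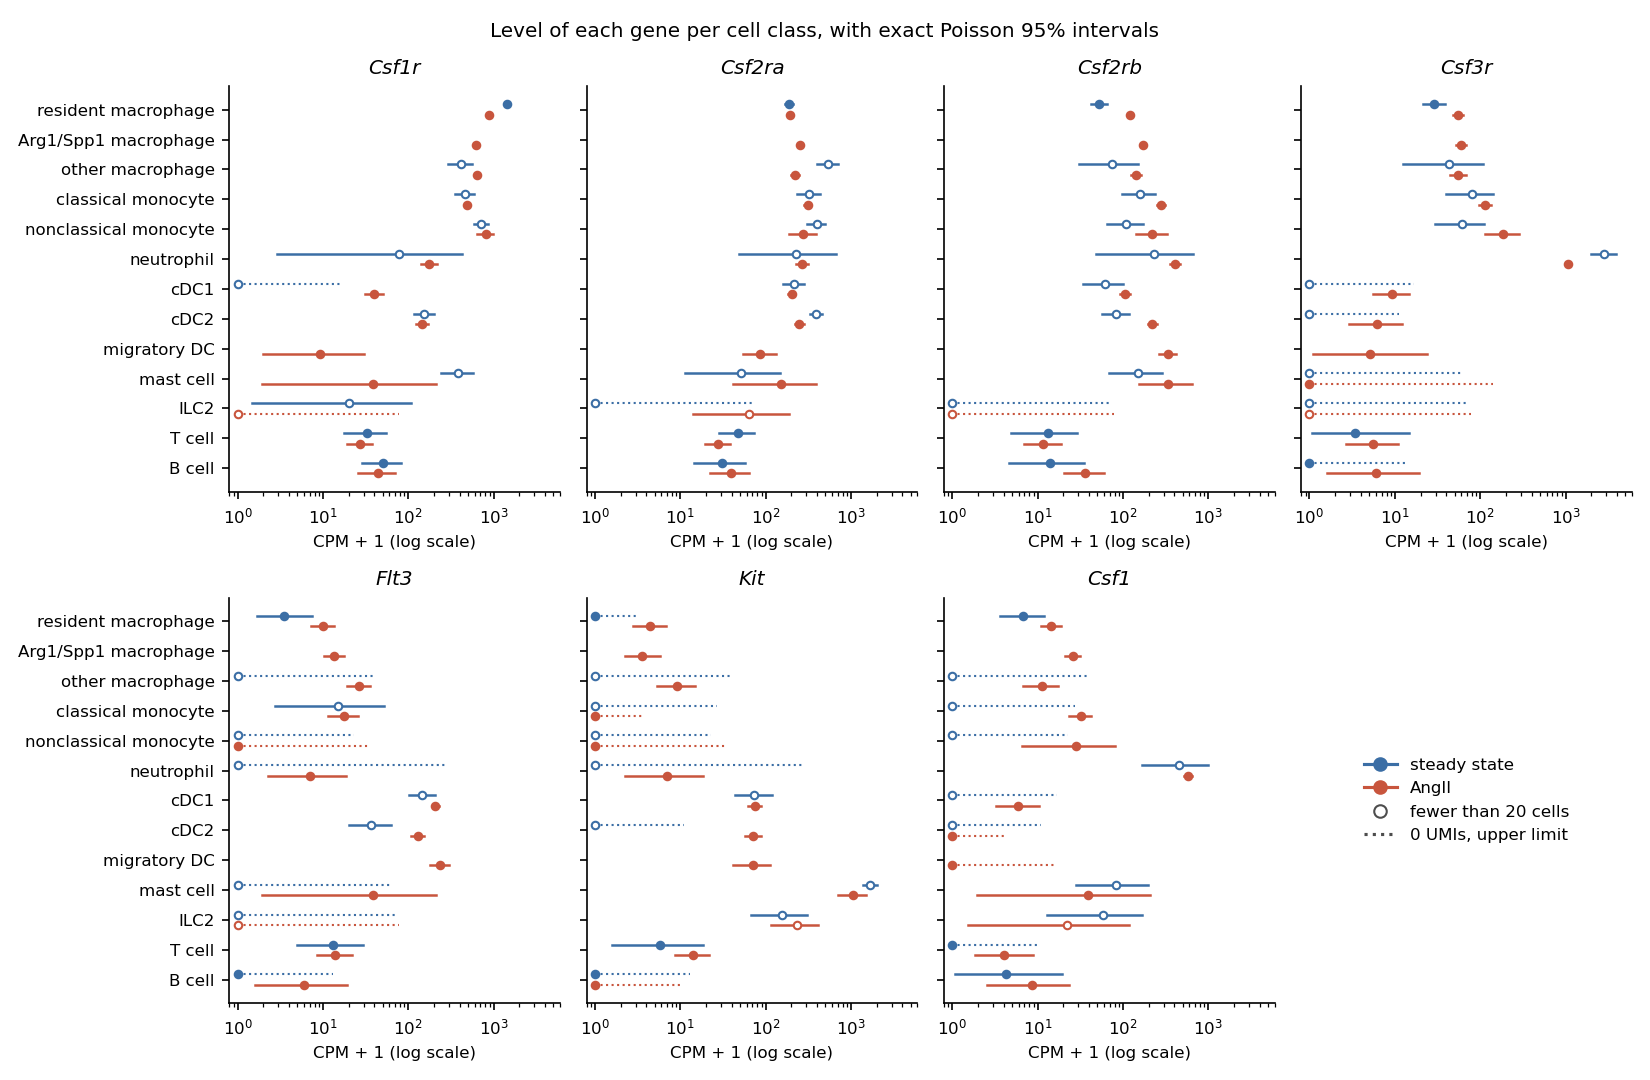
Level of each of the 7 genes by marker-gated class and library (CPM + 1 on a log axis, points with 95% Poisson intervals, 1 panel per gene; open points mark classes of fewer than 20 cells and dotted lines the upper limit where the count was 0). *Csf1r* covers macrophages and monocytes, *Csf2ra* nearly all myeloid classes, *Csf3r* and *Csf1* peak in neutrophils, *Flt3* in dendritic cells and *Kit* in mast cells.

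*Csf1*, the ligand of Csf1r, had its highest AngII level in neutrophils too. It reached 578 CPM (513 to 649) there, and the next class of at least 20 cells, mast cells, had 37.5 CPM from 1 UMI. The 9 eosinophils also had 1 UMI. Classical monocytes had 31.0 CPM, nonclassical monocytes 27.4 CPM, *Arg1*/*Spp1* macrophages 24.8 CPM and resident macrophages 13.5 CPM, with B cells at 7.58 CPM. None was found in cDC2 or migratory dendritic cells. Macrophages outnumber neutrophils, yet all of them together held 29.8% of the *Csf1* UMIs of the AngII library. *Arg1*/*Spp1* macrophages exceeded resident macrophages by 1.84-fold (1.30 to 2.63).

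The *Csf1* UMIs of neutrophils were more concentrated than those of *Csf3r*. A UMI was seen in 68 of 192 neutrophils, 42 of them with at least 2 and 16 with at least 5. The highest 3 cells held 29, 29 and 23, and the 5 highest 111 of the 286 UMIs, or 38.8%. After thinning, 34 of 135 neutrophils (25.2%, 18.1 to 33.4) had a UMI and 0 of 64 B cells. Neutrophils with and without *Csf1* both carried *Csf3r*, at 1171 CPM (1043 to 1310) in 68 cells and 958 CPM (837 to 1091) in 124 cells, with median depths of 3461.5 and 1092 UMIs. In thinned cells *Csf3r* and *Csf1* met in 21 neutrophils, where 21.4 would be counted if they were independent, and *Csf3r* and *Csf2rb* in 30 against 27.7. Leaving out the cell with the most *Csf1* UMIs did not move the level beyond its counting interval, and a gate of at least 4 neutrophil markers likewise did not.

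At steady state *Csf1* was scarce, with 27 UMIs in the whole library. Of these, 6 were in 1 of the 3 neutrophils, 5 in 5 of the 9 mast cells, 3 in ILC2 and 9 in resident macrophages, equal to 83.1 CPM for mast cells, 57.7 CPM for ILC2 and 5.67 CPM for resident macrophages. Macrophages had 5.25 CPM at steady state and 17.6 CPM on AngII (3.35, 1.72 to 7.46), and B cells 3.30 and 7.58 CPM from 1 and 3 UMIs. With 3 neutrophils at steady state, no comparison of neutrophils between the libraries was made.

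**Figure D4:**
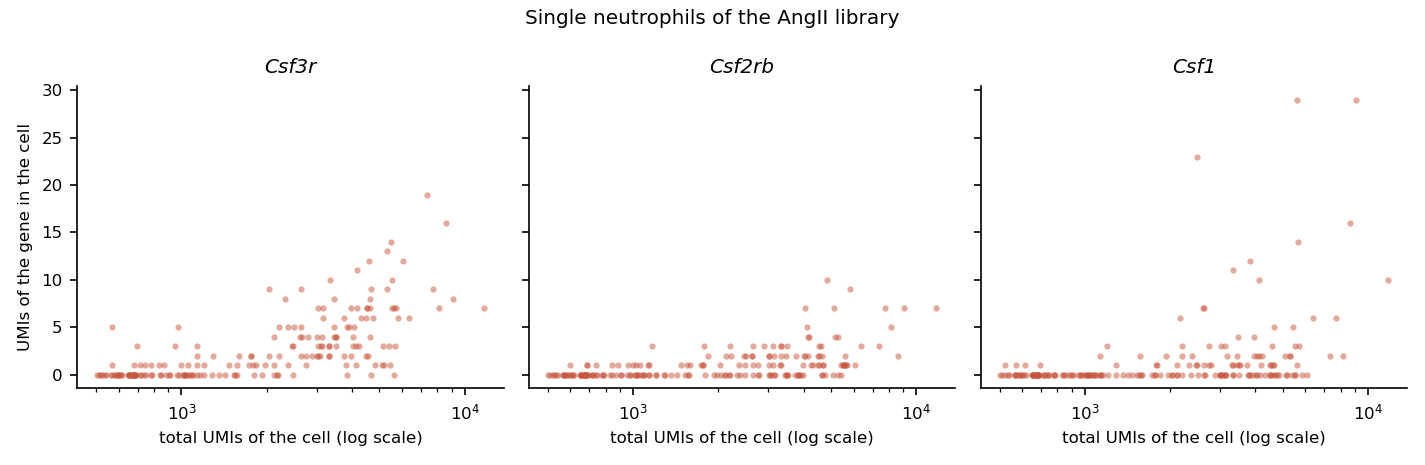
UMIs of *Csf3r*, *Csf2rb* and *Csf1* in each of the 192 AngII neutrophils (y axis) against the total UMIs of the cell (x axis, log scale), 1 point per cell and 1 panel per gene. *Csf3r* is found in 120 cells with at most 19 UMIs, while *Csf1* is found in 68 cells, of which the highest 3 hold 29, 29 and 23.

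*Flt3* was highest in dendritic cells. On AngII, migratory dendritic cells had 233 CPM (177 to 302) and cDC1 207 CPM (187 to 229), which did not differ beyond counting error (1.13, 0.838 to 1.49). Of the 57 *Flt3* UMIs in the 33 migratory cells, 34 were in 5 cells. None of these 33 lay in a Leiden cluster of that name, while 19 lay in the cDC2 cluster and 9 in clusters of other macrophages. The part this has in the levels of the migratory class was not tested. The cDC1 exceeded cDC2, at 128 CPM (108 to 150.2), by 1.62-fold (1.33 to 1.97). The 10 pDC had 102 CPM from 6 UMIs in 5 cells, macrophages 13.3 CPM, neutrophils 6.06 CPM and B cells 5.06 CPM. At steady state each of the 11 cDC1 carried *Flt3*, from 1 to 6 UMIs a cell, for a level of 146 CPM (101 to 203), and cDC2 had 35.6 CPM (19.0 to 61.0) from 13 UMIs in 4 of 15 cells. The ratio of AngII to steady state was 1.42 (0.999 to 2.08) in cDC1 and 3.59 (2.03 to 6.89) in cDC2.

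The cDC2 gate did not hold the same mixture in the libraries. Its steady-state cells had a mean of 3.00 of 10 macrophage markers and a median depth of 25744 UMIs, against 2.01 markers and 6216 UMIs on AngII. All 15 steady-state cDC2 lay in resident macrophage Leiden clusters, and no cDC2 cluster was found there. On AngII 48 of the 109 lay in the cDC2 cluster and 52 in clusters of other macrophages. The part this has in any cDC2 ratio or split given here was not tested. *Kit* differed in the same gate, with 0 UMIs in the 15 steady-state cDC2, where a floor of 3 UMIs equals 8.23 CPM. On AngII there were 82 UMIs in 30 of 109 cDC2, or 70.8 CPM (56.3 to 87.9). This level was 8.61-fold that of a floor of 3 UMIs at steady state, and the 95% lower limit of the ratio was 6.85. The 30 AngII cDC2 with a *Kit* UMI had 211 CPM of *Flt3* (174 to 253) and 99.8 CPM of *Csf1r* (75.0 to 130.2), whereas the 79 without one had 55.1 CPM of *Flt3* (38.2 to 77.1) and 183 CPM of *Csf1r* (151 to 220.3). These sets of cells differed in depth, with medians of 18413.5 and 1194 UMIs. In cDC1 the same split gave 226 and 171 CPM of *Flt3* and 10.0 and 93.6 CPM of *Csf1r*, for 59 and 173 cells with medians of 22643 and 1060 UMIs. The mean number of macrophage markers in cDC1 was 0.818 at steady state and 1.69 on AngII, and its part in the *Csf1r* counts of AngII cDC1 (71 UMIs, against 0 at steady state) was not tested.

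*Kit* itself was highest in mast cells. All 9 steady-state mast cells carried it, with 14, 18, 22, 11, 8, 8, 8, 7 and 5 UMIs in order of falling depth from 17013 to 1860 UMIs, for 1679 CPM (1367 to 2040). In the shallower AngII library 8 of 20 mast cells had a UMI, 28 in all and 13 of them in 1 cell, for 1051 CPM (698 to 1519) at a median depth of 792.5 UMIs. The ratio of the levels was 0.626 (0.397 to 0.960) with all cells, and the AngII level was 688 CPM without the highest cell and 1664 CPM in the 3 cells of at least 2000 UMIs, so the libraries cannot be ordered. Among classes of more than 1 cell, ILC2 came next with 154 CPM (8 UMIs in 3 of 7 cells) at steady state and 232 CPM (11 UMIs in 4 of 7 cells) on AngII. The cDC1 had 72.8 and 73.9 CPM (ratio 1.02, 0.611 to 1.79), and migratory dendritic cells on AngII 69.6 CPM. The 3 dendritic classes of that library did not differ from each other beyond counting error. Macrophages had 0 UMIs in 135 cells and 36 UMIs in 2495, at 3.88 CPM.

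A further feature of the mast cell gate concerned *Csf1r*, at 382 CPM at steady state. All 23 UMIs were in the 3 deepest of the 9 barcodes, with 13, 8 and 2 UMIs, and the other 6 had 0. Those 3 barcodes carried 9, 9 and 8 of the 10 macrophage markers, and each of the other 6 carried 1. Both mast cell and macrophage transcripts were thus found under the same barcodes. On AngII, mast cells had 1 *Csf1r* UMI in 20 cells.

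With a minimum of 20 UMIs in 1 library or the other, 4 of the 7 genes were past 2-fold in macrophages in the AngII direction (*Csf2rb*, *Flt3*, *Kit* and *Csf1*), where 8.41% of all genes tested were higher and 7.81% were lower by as much. Apart from *Csf2rb*, these calls rested on 6, 0 and 9 steady-state UMIs. The median log2 ratio was 1.15 over the 7 genes, which is the bound of *Kit* against the floor of 3 UMIs, and -0.02 over all genes tested. In resident macrophages 3 of 6 were higher (*Csf2rb*, *Flt3* and *Csf1*), beside 6.75% of all genes higher and 5.34% lower. Here *Flt3* had 2.52 and 9.07 CPM, and *Csf1* 5.67 and 13.5 CPM, both within the intervals of the B cells. In cDC2, 3 of 5 were higher (*Csf2rb*, *Flt3*, *Kit*), beside 13.5% of genes (5.54% lower). Of these, *Flt3* and *Kit* had 13 and 0 steady-state UMIs and met the minimum only on AngII. In nonclassical monocytes 2 of 4 were higher (*Csf2rb*, *Csf3r*), beside 4.41% (7.67% lower). Both met the minimum only on AngII, with 18 and 10 UMIs at steady state and 24 and 20 on AngII. In cDC1 1 of 5 was higher (*Csf1r*, 0 UMIs at steady state), beside 14.2% (6.5% lower). None of 6 was in classical monocytes, beside 15.5% (8.83% lower), and none of 2 in T cells, beside 19.7% (4.83% lower). In mast cells *Csf1r*, 1 of 2, was lower by 2-fold or more, as were 20% of the 429 genes tested (6.06% were higher), and in B cells, with 4.86% of genes higher and 4.5% lower, no member reached 20 UMIs.

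The wider pathway was read from a list of 39 further genes: ligands, partner receptors, signalling and feedback genes, and transcription factors. In macrophages, 33 were tested, of which 4 were higher on AngII by 2-fold or more and 1 lower, beside 8.41% and 7.81% of all genes, with a median log2 ratio of 0.30. The lower one was *Kitl*, the gene for stem cell factor, the ligand of Kit. It had 99.1 CPM from 170 UMIs in steady-state macrophages and 10.9 CPM from 101 UMIs on AngII, a ratio of 0.110 (0.0850 to 0.141), at the 0.470 percentile of all genes tested. In resident macrophages it was 105 and 13.5 CPM (0.129, 0.0924 to 0.177), and the 3 depth-matched macrophage ratios were 0.0932, 0.110 and 0.157. Of the 182 *Kitl* UMIs at steady state, 166 were in resident macrophages, the highest class for this gene.

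Of the genes higher in AngII macrophages, *Csf2rb2*, the interleukin 3 receptor chain related to *Csf2rb*, had 15.7 and 37.3 CPM (2.37, 1.60 to 3.65). *Id2*, an inhibitor of basic helix-loop-helix factors, had 81.7 and 207 CPM (2.54, 2.14 to 3.03). The feedback genes *Socs2* (3.14, 1.55 to 7.43) and *Cish* (11.7, 2.02 to 467) rested on 8 and 1 steady-state UMIs. None of the 12 signalling genes was past 2-fold in macrophages. In resident macrophages 3 of 32 were higher (*Socs2*, *Irf8* at 2.04 and *Id2* at 2.01) and 1 lower, beside 6.75% and 5.34% of all genes. In B cells 4 of 21 were higher (*Pik3r1*, *Socs3*, *Cebpb*, *Id2*), beside 4.86%, and in T cells 4 of 25 were lower (*Pik3cd*, *Pik3r1*, *Socs2*, *Irf8*), beside 4.83%. In cDC2 the count was 8 higher of 28, beside 13.5%, and in cDC1 4 of 27, beside 14.2%. In classical monocytes 3 were higher and 3 lower of 31, beside 15.5% and 8.83%. In nonclassical monocytes it was 0 of 15, and in mast cells 1 of 6 was lower, beside 20%.

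The other ligands were scarce in these sorted immune cells. *Il34*, which encodes the second ligand of Csf1r, and *Il3* had 0 UMIs in both libraries. *Csf2* had 6 and 14 UMIs, *Csf3* 0 and 8, *Flt3l* 38 and 167, and *Il5* 1 and 23. The highest levels in their groups were those of *Kitl* among ligands (105 CPM in steady-state resident macrophages), *Tyrobp* among signalling genes (5219 CPM in AngII neutrophils), *Socs2* among feedback genes (721 CPM in migratory dendritic cells) and *Cebpb* among transcription factors (5229 CPM in AngII neutrophils). *Irf8*, needed for cDC1, reached 1709 CPM in AngII cDC1.

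For each of the 7 genes, the most similar patterns were looked up over the 15 class-by-library sums of at least 20 cells, among 9660 genes with at least 100 UMIs. The correlations are descriptions over points that share libraries and depths. Mast cells and neutrophils each gave only 1 point, both on AngII. The mast cell point held 20 cells with 26640 UMIs in all. *Csf1r* was nearest to *Lrp1* (Pearson r = 0.953 on log2 of CPM + 10), *Lyz2* and *Hacd4*, and *Csf2ra* to *Arpc1b* (0.972), *Fes* and *Tyrobp*. *Csf2rb* was nearest to *Ostf1* (0.955), *Clec4n* and *Il1b*, and *Csf3r* to *6030400A10Rik* (0.973), *Fpr1* and *Tnfaip2*. *Flt3* had *Sub1* (0.922), *Zfp366* and *Zbtb46* as its nearest genes, *Kit* had *Orc4* (0.918), *Gcat* and *Slc7a5*, and *Csf1* had *Slfn4* (0.931), *Slpi* and *Arg2*. Over all points *Gcat* and *Slc7a5* had 100 and 174 UMIs. Among the 7 genes themselves, *Csf1* and *Csf3r* (0.825) and *Csf2ra* and *Csf2rb* (0.805) were the most alike, followed by *Csf1r* and *Csf2ra* (0.687) and by *Flt3* and *Kit* (0.667). *Kit* and *Csf1r* (-0.485) were the least alike.

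Some single AngII resident macrophages held more than 1 of the receptors. After thinning, *Csf1r* and *Csf2ra* met in 60 of 509 cells, where independence gives 55.6, *Csf1r* and *Csf2rb* in 42 against 36.0, and *Csf2ra* and *Csf2rb* in 12 against 12.4. These pairs of resident macrophages were thus found together about as often as their separate frequencies give at this depth. For *Csf1r* and *Csf3r* the counts were 22 against 16.9 in resident macrophages and 8 against 12.6 in AngII neutrophils. In AngII cDC1, *Flt3* and *Kit* met in 2 cells against 2.47, too few to tell whether they were independent.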

How the data were processed

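Libraries of sorted CD45-positive aortic cells, 1 per condition, were analysed. Per the study's methods and labels the authors demultiplexed the reads, ran Cell Ranger 3.1.0 against GRCm38.p6 with GENCODE gene models and an added eYFP sequence, and deposited whole UMI counts per gene for droplets called as cells. Ambient RNA was not removed and doublets were left in. The cell filter stated in the study's methods was applied to these counts (300 to 6500 genes, at most 5% mitochondrial UMIs). It kept 306 and 4198 cells with a median of 9105 and 1092 UMIs, which limits shares of cells with a UMI on AngII, so cells were thinned to 1000 UMIs for such shares (303 and 2288 cells reach it). Each cell was given the class with the largest share of its marker list detected, from at least 2 markers, and ties were left unassigned. This minimum was settled after the marker levels had been seen. Macrophages were split by the resident and *Arg1*/*Spp1* lists. The 7 genes, the marker lists and the list of 39 pathway genes were chosen with earlier results of these data known. UMIs were summed per class and given as CPM, with exact Poisson intervals. Shares have Clopper-Pearson intervals and ratios have exact conditional binomial intervals. All cover counting error only, and with 1 library per condition there was no test. A count of 0 was set against a floor of 3 UMIs per summed class, and a gene was tested for a 2-fold ratio from 20 UMIs in either library. Named were the 7 genes, pathway genes that led their group or were past 2-fold in a class of at least 20 cells in both libraries (*Irf8* in cDC1 was added after its value was seen), and the 3 genes most correlated with each of the 7. Promoters came from RefSeq (5 of the 7 genes matched). Alternatives were Leiden clusters, other gate, filter, depth and doublet rules, and another reporter call. Python 3.11.15, NumPy 2.4.6, SciPy 1.17.1, pandas 2.3.3, Scanpy 1.11.5, leidenalg 0.10.2 and Matplotlib 3.10.9 were used, and the scripts were tested on simulated data.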

Additional observations from a re-analysis of the deposited data

Results flagged for a closer look

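The contrast of reporter-positive and reporter-negative macrophages had opposite directions in the libraries for 2 genes, and the difference was not tested because each condition had 1 library. *Csf1r* in Yfp+ over Yfp- macrophages had a ratio of 0.885 (0.788 to 0.997) at steady state and 1.24 (1.18 to 1.30) on AngII, and within the resident gate 0.703 (0.624 to 0.794) and 1.18 (1.10 to 1.27). *Csf2ra* had the reverse order in the resident gate, 2.0 (1.21 to 3.54) at steady state, with 280 UMIs in Yfp+ and 16 in Yfp- cells, and 0.818 (0.707 to 0.947) on AngII. The median depths of Yfp+ and Yfp- resident macrophages were 11211.5 and 5215 UMIs at steady state and 7944.5 and 1304 UMIs on AngII. With cells thinned to 1000 UMIs after the call, the intervals of all 4 resident ratios held 1, for *Csf1r* 0.806 (0.583 to 1.13) and 1.16 (0.95 to 1.41), and for *Csf2ra* 3.38 (0.508 to 144) and 0.828 (0.540 to 1.25).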

How the results depend on the processing

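No paired analysis was possible because each condition had 1 library, and for the same reason no replicate could be left out. Over 53 values and their alternatives, 248 values stayed within the counting interval and 77 moved outside it. No ratio whose interval left out 1 went to the other side of 1. The *Csf2ra* macrophage ratio of 1.07, whose interval held 1, was 0.947 in Leiden clusters and 2.08 when thinned, and the steady-state *Csf2rb* ratio of Yfp+ to Yfp- resident macrophages went from 1.06 to 0.713 with at least 2 *EYFP* UMIs. In Leiden clusters *Csf1r* was 1018 CPM in AngII and 1089 CPM in steady-state resident macrophages, with a macrophage ratio of 0.618, and AngII *Csf3r* was 1233 CPM and *Csf1* 669 CPM in neutrophils and *Flt3* 186 CPM in cDC1. With at least 3 markers AngII resident *Csf1r* was 925 CPM, and with at least 4, added after seeing the data, 955 CPM. In cells of at least 2000 UMIs *Csf3r* was 1187 CPM, *Csf1* 664 CPM and AngII mast cell *Kit* 1664 CPM. As a mean over cells, steady-state resident *Csf1r* was 1641 CPM, neutrophil *Csf2rb* 338 CPM, *Csf3r* 879 CPM and *Csf1* 413 CPM, cDC1 *Flt3* 171 CPM, mast cell *Kit* 649 CPM and the *Csf1r* ratio 0.428, while the *Flt3* macrophage ratio of 3.79 became 14.9. Thinned to 1000 UMIs, these were 1627 CPM for resident *Csf1r* at steady state, 231 CPM for *Flt3* in cDC1, 667 CPM for *Kit* and 0.460 for the *Csf1r* ratio, and the *Csf3r* macrophage ratio of 2.0 became 4.14 (3.02 in clusters). Without barcodes that carried both lymphoid and myeloid markers (82 and 732) *Kit* was 655 CPM in AngII mast cells, and the *Csf1* macrophage ratio of 3.35 was 11.1. Without the highest cell *Kit* was 688 CPM. The depth-matched *Csf1r* ratios, added after seeing the data, were 0.511, 0.515 and 0.822. The cause of these shifts was not tested. Depth limits the rare transcripts: 1910 AngII cells had fewer than 1000 UMIs, and the steady-state classes outside macrophages, B and T cells held at most 15 cells.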
